A study of Mus musculus with 4 samples.

Results

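The inhibitor of DNA binding (Id) genes and the genes of their dimerisation partners, the E proteins, were followed in E14 mouse ES cells after knock-down of Zfp322a. They were found by symbol: all probe sets whose single gene symbol in the platform annotation was Id1, Id2, Id3, Id4, Tcf3, Tcf4 or Tcf12, which gave 22 of the 45037 probe sets on the array, 8 for Id genes and 14 for E protein genes. The family was chosen on the basis of its values on these same arrays, so its changes between the groups are given as a description, with no p for any of its probe sets.

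Id proteins carry a helix-loop-helix dimerisation domain but lack the basic region that contacts DNA. They pair with the basic helix-loop-helix (bHLH) E proteins, made from Tcf3 (E2A), Tcf4 (E2-2) and Tcf12 (HEB), and the resulting dimers cannot bind the E-box sequences that E proteins otherwise read together with tissue-specific bHLH factors. In mouse ES cells grown with serum, bone morphogenetic protein (BMP) signalling through SMAD transcription factors is a known inducer of Id genes, and Id proteins are known to hold back neural differentiation alongside the cytokine LIF.

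RNA was measured on 4 Affymetrix MG430 2.0 arrays, with 1 array for each sample: 2 of Zfp322a RNAi cells, which carried a pSuper.puro plasmid expressing an shRNA against the zinc finger gene Zfp322a, and 2 of control RNAi cells, which carried the pSuper.puro vector as a mock knock-down. Both groups were E14 cells cultured with fetal bovine serum and LIF, transfected by lipofection and selected with puromycin for 3 days, and no sample without transfection and selection entered the comparison. The labels do not say which shRNA was used, and the knock-down is a partial, transient loss of the mRNA in a selected pool of cells. The comparison asks how Id and E protein mRNAs differed when Zfp322a mRNA was lowered, with levels given as log2 robust multi-array average (RMA) values and changes as the Zfp322a RNAi mean minus the control RNAi mean (log2) ± the standard error (SE) of the limma fit (n = 2 arrays per group).

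The array medians were between 6.07 and 6.08 in Zfp322a RNAi and between 6.10 and 6.11 in control RNAi. Zfp322a itself read 7.53 and 7.13 on the Zfp322a RNAi arrays, against 8.75 and 8.84 on the control RNAi arrays, at probe set 1439035_at (change -1.47 ± 0.14, limma adjusted p = 0.00220). Its other probe set, 1452374_at, changed by -1.87 ± 0.09 (adjusted p = 9.35e-04). Markers of cell types were counted on the brightest probe set of each gene, where 12.2% of all 18193 genes were higher and 11.5% lower in Zfp322a RNAi at a limma adjusted p of 0.05. Of 12 ES cell markers, 0 were higher and 3 were lower (Esrrb -0.41, Utf1 -0.65 and Tdgf1 -0.59), and all 12 lay above the median probe set. Among the 9 that did not pass were Pou5f1 (-0.055), Nanog (-0.025), Sox2 (0.015) and Zfp42 (0.06). Endoderm markers were higher in 6 of 11 and lower in 0, with a linear level (2 to the power of the log2 value, summed over the list) of 1491 to 1499 in Zfp322a RNAi and 1109 to 1203 in control RNAi. Neural markers were higher in 3 of 9 and lower in 0, with sums of 1172 to 1219 in Zfp322a RNAi and 963 to 967 in control RNAi. In the endoderm and neural lists the sums of the groups did not overlap, with Zfp322a RNAi above, and they lay the other way in the ES cell, trophoblast and fibroblast lists. Such a sum follows the brightest genes of its list that changed, so it does not describe a shift of every gene in it. The ES cell sums were 66968 to 67028 in Zfp322a RNAi and 71865 to 73492 in control RNAi. Trophoblast markers were higher in 1 of 11 and lower in 5, with sums of 1647 to 1650 in Zfp322a RNAi and 2383 to 2451 in control RNAi. Fibroblast and feeder markers were higher in 0 of 12 and lower in 2, a share near that of all genes, with sums of 653 to 674 in Zfp322a RNAi and 817 to 839 in control RNAi. Below the median probe set lay 5 endoderm, 3 neural, 5 trophoblast and 8 fibroblast markers, on a scale that has no zero. Other probe sets of some markers differed in call from the brightest. Klf4 and Fgf4, which did not pass, each had 1 other that was lower, and Pax6 had 2 others that were higher. For Esrrb, Sox7, Pdgfra, Zic1 and Pdgfrb, which passed, no other probe set did. In RNA from whole cultures, more cells of a type and more RNA per cell cannot be told apart, and the part of these cell types in the values below was not tested.

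The promoters of 3 Id genes are shown because Id2 and Id3 differed over 5-fold between the groups and Id4 by less than 1.5-fold. Each is the 250 bases before the start of the RefSeq transcript on GRCm38.p6, 5′ to 3′ on the gene's own strand. Id2 lies at chr12:25096093-25096342 (minus strand), Id3 at chr4:136143572-136143821 (plus strand) and Id4 at chr13:48260866-48261115 (plus strand). Capitals mark the CCAAT box (CCAAT, or ATTGG on the other strand) and the GC-rich element GGCGCC, which SMAD1 and SMAD5 are known to read at BMP-responsive genes.
Id2 promoter: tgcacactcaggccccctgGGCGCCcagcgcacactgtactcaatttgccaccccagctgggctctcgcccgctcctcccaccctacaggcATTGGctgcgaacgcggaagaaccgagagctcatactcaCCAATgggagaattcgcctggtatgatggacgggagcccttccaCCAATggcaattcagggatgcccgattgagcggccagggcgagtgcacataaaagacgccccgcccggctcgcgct
Id3 promoter: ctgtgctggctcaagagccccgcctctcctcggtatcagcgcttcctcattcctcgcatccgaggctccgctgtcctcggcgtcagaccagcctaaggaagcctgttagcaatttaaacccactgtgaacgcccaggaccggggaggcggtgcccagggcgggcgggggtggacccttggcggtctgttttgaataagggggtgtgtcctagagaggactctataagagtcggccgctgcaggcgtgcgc
Id4 promoter: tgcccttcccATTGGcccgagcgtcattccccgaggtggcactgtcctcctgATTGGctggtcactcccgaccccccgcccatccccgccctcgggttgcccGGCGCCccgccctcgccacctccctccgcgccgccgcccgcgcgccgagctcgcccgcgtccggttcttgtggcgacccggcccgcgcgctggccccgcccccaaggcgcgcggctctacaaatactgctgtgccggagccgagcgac

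The Id2 promoter held 3 CCAAT boxes, at -159 (on the other strand), -120 and -76 from the transcript start, and a GGCGCC element at -231. It also held an E-box of the form CANNTG, the kind that E proteins bind, with the letters CAGCTG at -196. The Id4 promoter held CCAAT boxes at -240 and -198, both on the other strand, and a GGCGCC element at -148. None of the letters searched was found in the Id3 window, and its GC content of 62.8% equalled that of Id2, against 75.6% in Id4. Over 32851 promoters of this length, CCAAT was present in 33.8%, GGCGCC in 9.59% and CANNTG in 66.2% on either strand. CACGTG (6.02%) and CAGGTG (17.2%), 2 forms of the E-box that overlap CANNTG, were absent from the Id windows, as were the SMAD box CAGACA (17.1%), TATAAA (12.4%), the cyclic AMP response element TGACGTCA (1.55%) and TGATGCAA (0.791%), a CHOP-ATF composite element. A match is a string of letters and not a bound site, and its absence covers only this window.

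Id2 had the largest changes in the family. Probe set 1435176_a_at read 11.72 and 11.58 on the Zfp322a RNAi arrays, against 8.59 and 8.39 on the control RNAi arrays. Probe set 1422537_a_at read 11.12 and 11.11 in Zfp322a RNAi, against 8.58 and 8.68 in control RNAi. The dimmest, 1453596_at, read 7.42 and 6.91 in Zfp322a RNAi, against 4.45 and 4.63 in control RNAi, where it lay below the array medians. At all 3 probe sets both knock-down arrays were above both control arrays by far more than arrays of a group differed, although the Zfp322a RNAi arrays differed by 0.51 at 1453596_at, the widest replicate gap in the family. The log2 changes were 3.16 ± 0.10, 2.49 ± 0.08 and 2.63 ± 0.17, which are 8.94-fold and 5.60-fold at the brighter pair. Ordered by change among all 45037 probe sets, that pair ranked 1 and 8 from the top. No fold or rank is given for 1453596_at, since its control values were low on a scale without a zero.

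Id1 and Id3, which are known as immediate BMP targets in many cell types, had 1 probe set each. Id1 (1425895_a_at) read 11.69 and 11.69 on the Zfp322a RNAi arrays, against 9.71 and 9.81 on the control RNAi arrays, a change of 1.93 ± 0.08 or 3.81-fold. Id3 (1416630_at) read 10.46 and 10.48 in Zfp322a RNAi, against 8.02 and 8.14 in control RNAi, a change of 2.39 ± 0.08 or 5.24-fold. Both genes were higher on both knock-down arrays than on both control arrays, with ranks of 29 and 11 among all probe sets.

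Id4 behaved differently at its 3 probe sets, and none reached 1.5-fold. At 1423259_at it read 8.88 and 8.78 in Zfp322a RNAi, against 8.29 and 8.36 in control RNAi, a change of 0.51 ± 0.08 or 1.42-fold. At 1450928_at it read 7.61 and 7.36 in Zfp322a RNAi, against 7.21 and 7.02 in control RNAi (0.37 ± 0.12, or 1.29-fold). The third, 1423260_at, read 7.26 and 7.28 in Zfp322a RNAi and 7.29 and 7.28 in control RNAi, so that the groups overlapped and the change was -0.02 ± 0.07. The knock-down arrays were thus above the control arrays at 2 of the 3 Id4 probe sets, and the disagreement between probe sets of 1 gene was larger than the replicate gaps.

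**Figure D1:**
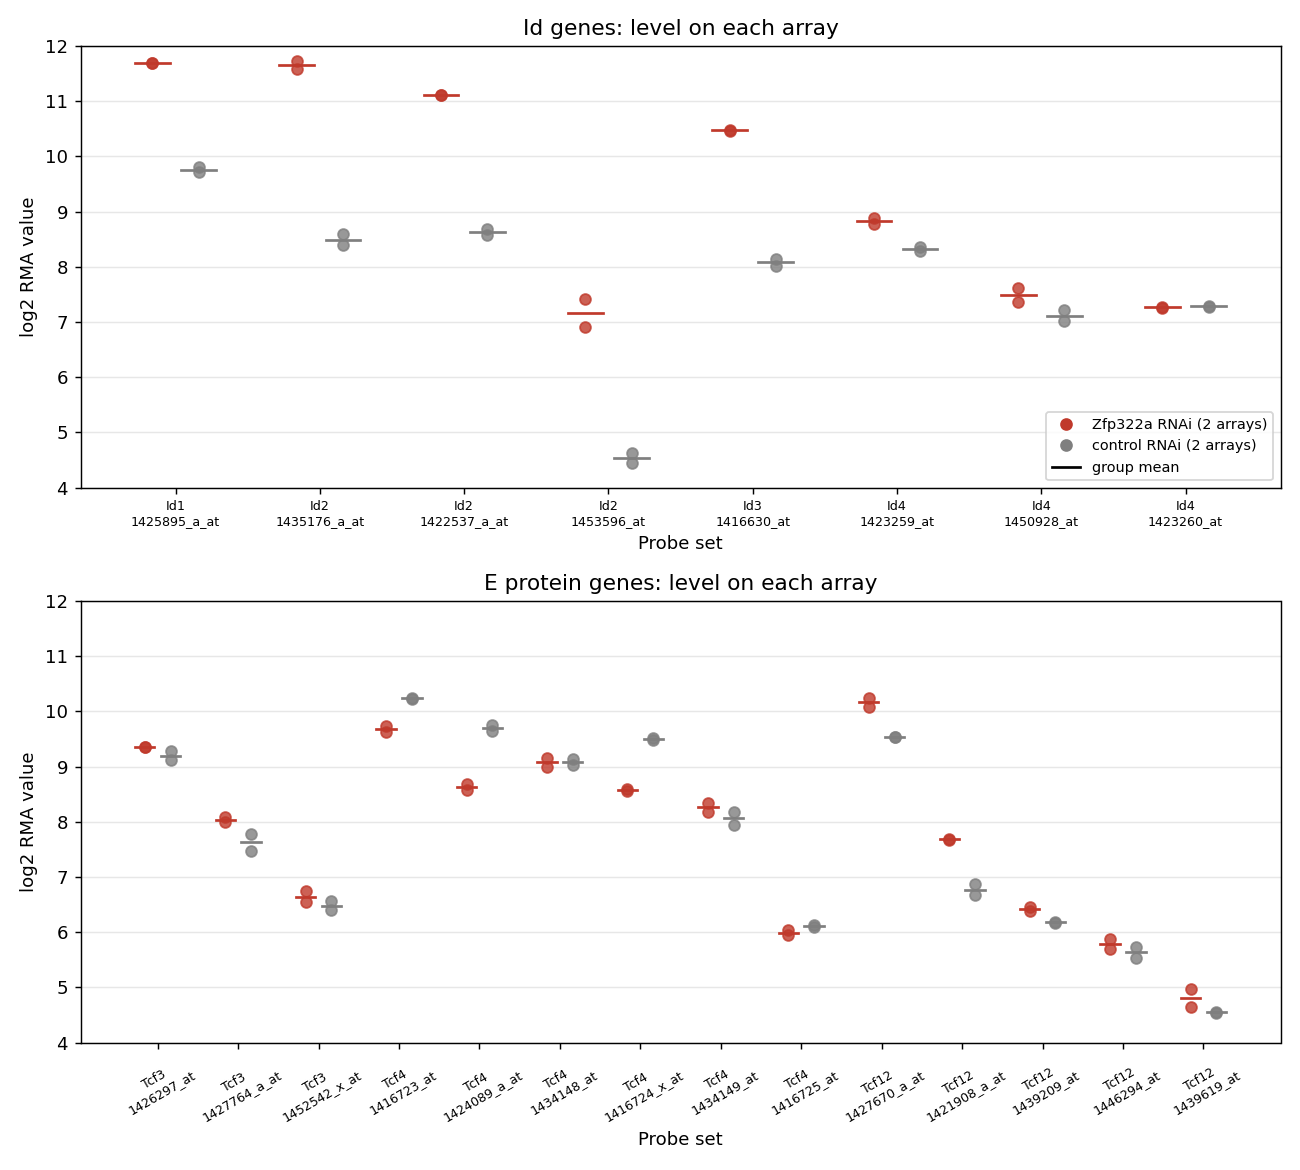
Level of each Id probe set (upper panel) and E protein probe set (lower panel) on each array, as log2 RMA values, with Zfp322a RNAi in red left of control RNAi in grey and the group mean (n = 2) as a line. The points of the Id1, Id2 and Id3 probe sets stand far apart between the groups, with Zfp322a RNAi above (Id2 at 11.72 and 11.58, against 8.59 and 8.39 at its brightest probe set), whereas those of Id4 and of most E protein probe sets stand close together.

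Among the E proteins, Tcf4 was measured by 6 probe sets that did not move together. Probe set 1424089_a_at read 8.68 and 8.58 on the Zfp322a RNAi arrays, against 9.76 and 9.65 on the control RNAi arrays, a change of -1.08 ± 0.09. Probe set 1416724_x_at read 8.55 and 8.60 in Zfp322a RNAi, against 9.52 and 9.48 in control RNAi (-0.93 ± 0.08). At 1416723_at the values were 9.74 and 9.63 in Zfp322a RNAi, against 10.25 and 10.22 in control RNAi (-0.55 ± 0.08). These 3 probe sets were lower on both knock-down arrays, with control RNAi 2.11-fold, 1.90-fold and 1.46-fold above Zfp322a RNAi. The letter x in 1416724_x_at marks a probe set that can hybridise to other transcripts. In contrast, 1434148_at read 9.16 and 8.99 in Zfp322a RNAi and 9.14 and 9.02 in control RNAi, a change of -0.01 ± 0.10 with overlapping groups. Probe set 1434149_at read 8.34 and 8.18 in Zfp322a RNAi and 8.18 and 7.94 in control RNAi, and here too the groups overlapped (0.20 ± 0.11). The last, 1416725_at, read 5.94 and 6.04 in Zfp322a RNAi, against 6.09 and 6.13 in control RNAi (-0.12 ± 0.08), below the median probe set at 6.09. No direction is therefore given for Tcf4 as a gene. The files do not tie these probe sets to transcript isoforms.

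Tcf12 had 5 probe sets, all with a positive change. At the brightest, 1427670_a_at, it read 10.24 and 10.08 in Zfp322a RNAi, against 9.53 and 9.53 in control RNAi, a change of 0.63 ± 0.09 or 1.55-fold. At 1421908_a_at it read 7.69 and 7.67 in Zfp322a RNAi, against 6.67 and 6.87 in control RNAi (0.91 ± 0.09, or 1.88-fold). Both probe sets were higher on both knock-down arrays by more than the replicate gaps. The other 3 changed by 0.15 to 0.27. Of these, 1439209_at read 6.45 and 6.39 in Zfp322a RNAi, against 6.17 and 6.18 in control RNAi, and 1446294_at and 1439619_at lay below the median probe set.

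Tcf3, which encodes the E2A proteins, differed little. Its brightest probe set, 1426297_at, read 9.35 and 9.36 in Zfp322a RNAi, against 9.11 and 9.28 in control RNAi (0.16 ± 0.09). At 1427764_a_at it read 8.09 and 7.99 in Zfp322a RNAi, against 7.47 and 7.78 in control RNAi (0.42 ± 0.12, or 1.33-fold), where the control arrays alone differed by 0.31. At 1452542_x_at the groups overlapped, with 6.54 and 6.75 in Zfp322a RNAi and 6.40 and 6.56 in control RNAi (0.17 ± 0.11).

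Counted over the family, 8 of the 22 probe sets were past a limma adjusted p of 0.05 in the higher direction in Zfp322a RNAi and 3 in the lower direction, where 10.6% and 9.47% of all 45037 probe sets were. Because the family was selected on this contrast, nothing is read from these counts. Both knock-down arrays lay above both control arrays at 13 of the 22 and below them at 4, where 25.1% and 32.4% of all probe sets did. With the study's cut-off of 1.5-fold, applied without a test, 7 were higher and 2 lower, beside 4.67% and 2.64% of all probe sets. The median change was 2.16 over the Id probe sets and 0.16 over the E protein probe sets, beside -0.03 over all probe sets. With each array left out in turn, the change of Id1 ranged from 1.88 to 1.98, of Id2 1435176_a_at from 3.06 to 3.26, of Id3 from 2.33 to 2.45, of Tcf4 1424089_a_at from -1.13 to -1.02 and of Tcf12 1421908_a_at from 0.81 to 1.01. Wider ranges relative to the change were found for other probe sets: Id4 1450928_at ranged from 0.25 to 0.50, Tcf3 1427764_a_at from 0.26 to 0.57 and Tcf12 1439619_at from 0.11 to 0.43.

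**Figure D2:**
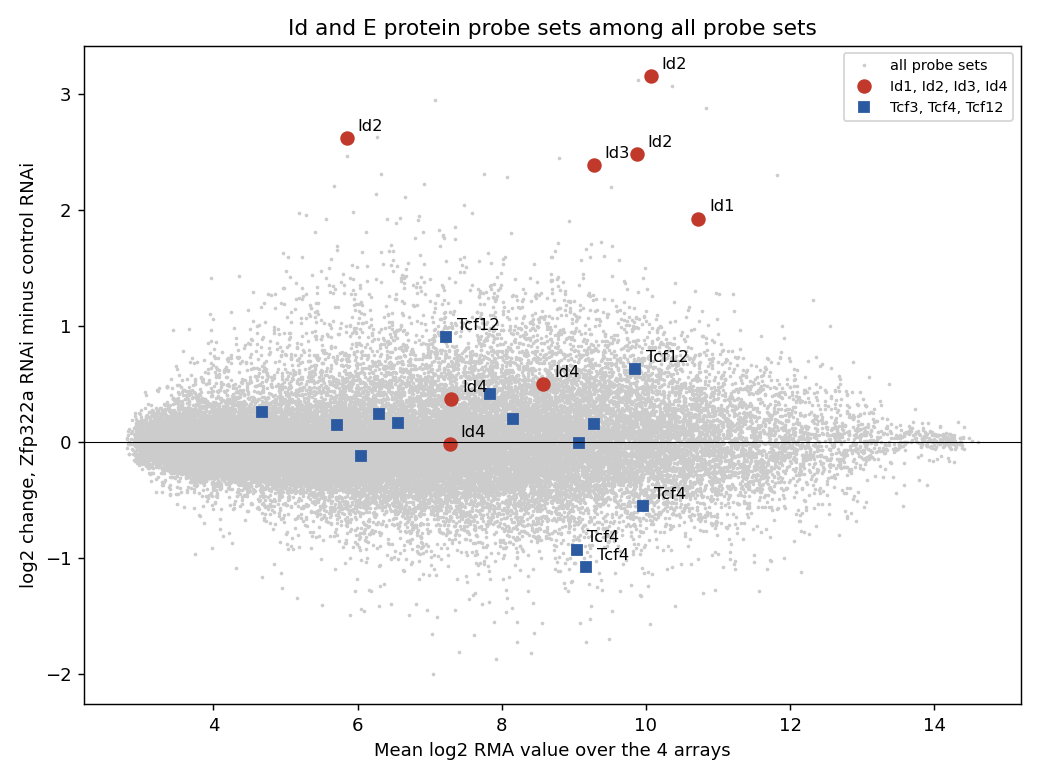
Log2 change (Zfp322a RNAi minus control RNAi, vertical axis) against the mean log2 RMA value over the 4 arrays (horizontal axis) for all 45037 probe sets in grey, the Id probe sets as red circles and the E protein probe sets as blue squares. The 5 probe sets of Id1, Id2 and Id3 lie between 1.93 and 3.16 at the upper edge of the cloud, 3 of Tcf4 lie between -1.08 and -0.55, and the others lie within it.

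The pathway that is known to induce Id genes was then examined through BMP ligands, receptors, SMAD transducers and inhibitors, each gene by its brightest probe set. Of 37 genes measured, 9 were higher and 3 lower in Zfp322a RNAi at a limma adjusted p of 0.05, beside the 12.2% and 11.5% of all genes, and their median change was 0.03, beside -0.04 over all genes. Among the 9 ligands, Bmp4, a ligand that ES cells make, fell: it read 8.25 and 8.26 on the Zfp322a RNAi arrays, against 9.26 and 9.32 on the control RNAi arrays, a change of -1.04 ± 0.08 (adjusted p = 0.00146) with control RNAi 2.05-fold above Zfp322a RNAi. Bmp2 rose by 0.49 ± 0.09 (adjusted p = 0.0131) but was dim, at 4.32 and 4.18 in Zfp322a RNAi, against 3.72 and 3.80 in control RNAi. The other 7 ligands did not pass on their brightest probe sets, though another probe set of Bmp7, 1418910_at, did (-0.34, adjusted p = 0.0493).

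Receptors and co-receptors were higher in 5 of 10 and lower in 1, beside 12.2% and 11.5% of all genes, with a median change of 0.24. Rgmb, a BMP co-receptor, read 7.92 and 7.78 in Zfp322a RNAi, against 6.60 and 6.70 in control RNAi (1.20 ± 0.09, adjusted p = 0.00146), though 1 of its 5 other probe sets was also higher and the rest did not pass. The type I receptor gene Acvr1 read 8.56 and 8.38 in Zfp322a RNAi, against 7.85 and 7.52 in control RNAi (0.79 ± 0.13, adjusted p = 0.0105), and its 2 other probe sets did not pass. On their brightest probe sets, rises were also measured for Bmpr1a, a type I receptor (0.34 ± 0.07, adjusted p = 0.0254), Acvr2a, a type II receptor (0.45 ± 0.08, adjusted p = 0.0123), and Bmpr1b (0.44 ± 0.09, adjusted p = 0.0178), which was below the median probe set. The probe sets of Bmpr1a disagreed, with 3 of the other 5 higher, by 0.83 to 0.97, and 1 lower (-0.37). Other probe sets of Acvr2a (1451004_at, 0.73, adjusted p = 0.00335) and of the co-receptor gene Eng (1432176_a_at, 0.48, adjusted p = 0.0124) were higher as well. Acvr2b fell by 0.35 on the log2 scale (adjusted p = 0.0426), and its 2 other probe sets did not pass (0.205 and -0.075). The type II receptor Bmpr2 read 8.73 and 8.72 in Zfp322a RNAi and 8.54 and 8.64 in control RNAi (0.14 ± 0.08, adjusted p = 0.307).

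None of the 4 SMAD transducers passed on its brightest probe set. Smad1 changed by 0.19 ± 0.09 (adjusted p = 0.196), Smad5 by 0.20 ± 0.08 (adjusted p = 0.155) and Smad4, the partner that they share, by -0.03 ± 0.08 (adjusted p = 0.830). Another probe set of Smad1 (1448208_at, 0.55, adjusted p = 0.00561) and another of Smad5 (1451873_a_at, 0.64, adjusted p = 0.00397) did pass.

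Inhibitors of the pathway were higher in 3 of 14 and lower in 1, beside 12.2% and 11.5% of all genes. Fst, which encodes the secreted antagonist follistatin, read 7.08 and 7.06 in Zfp322a RNAi, against 6.26 and 6.25 in control RNAi (0.82 ± 0.07, adjusted p = 0.00205), and its other probe set, 1434458_at, changed by 1.89 (adjusted p = 9.35e-04). Bambi, a decoy receptor (0.52 ± 0.08, adjusted p = 0.00800), and Smurf2, a ubiquitin ligase (0.32 ± 0.08, adjusted p = 0.0356), also rose. The 2 other probe sets of Smurf2 did not pass (0.08 and -0.035). Smad7, an inhibitory SMAD, fell by 0.47 on the log2 scale (adjusted p = 0.0171). That probe set can hybridise to other transcripts, and the other probe set of Smad7 did not pass.

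Known BMP targets other than Id genes did not share a direction. Of 9, which include Bambi and Smad7, 3 were higher and 1 lower, beside 12.2% and 11.5% of all genes, with a median change of 0.03. Msx2, a homeobox gene, read 7.27 and 7.34 in Zfp322a RNAi, against 6.14 and 5.81 in control RNAi (1.33 ± 0.12, adjusted p = 0.00205), and its other, dim probe set did not pass. Dusp9, a MAP kinase phosphatase that BMP is known to induce in mouse ES cells, read 9.56 and 9.46 in Zfp322a RNAi, against 8.43 and 8.46 in control RNAi (1.07 ± 0.08, adjusted p = 0.00146), and both its other probe sets were also higher. Msx1, Hey1, Atoh8, Dlx5 and Smad6 did not pass.

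**Figure D3:**
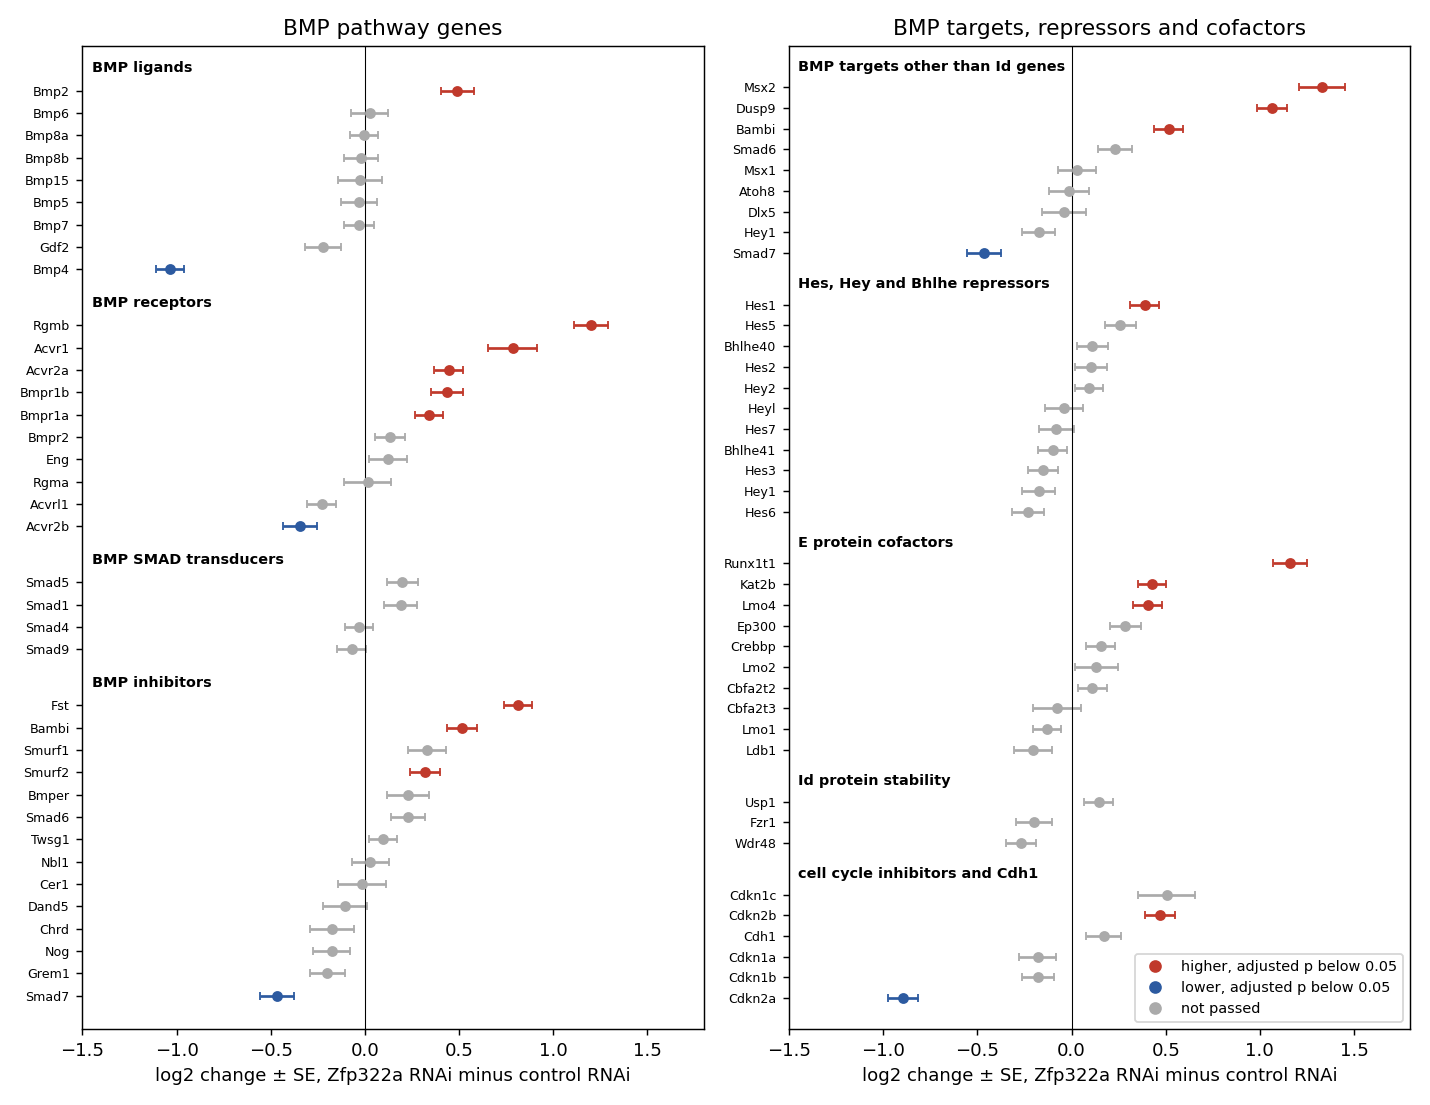
Log2 change ± SE (Zfp322a RNAi minus control RNAi, n = 2 arrays each) of each gene's brightest probe set. The left panel holds BMP ligands, receptors, SMAD transducers and inhibitors. The right panel holds BMP targets, bHLH repressors, E protein cofactors, genes acting on Id protein stability, and cell cycle inhibitors with Cdh1. Red and blue points are past a limma adjusted p of 0.05 and grey points are not. Bmp4 lies at -1.04, whereas Rgmb (1.20), Msx2 (1.33), Dusp9 (1.07) and Runx1t1 (1.16) lie at the upper end.

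Genes of the bHLH class, taken as tissue-specific partners of E proteins together with Hes, Hey and Bhlhe repressors, were mostly dim. Of 49 bHLH genes measured, 32 lay below the median probe set, 4 were higher and 2 lower in Zfp322a RNAi, which are smaller shares than the 12.2% and 11.5% of all genes, and the median change was -0.02. Among 38 tissue-specific partners of E proteins, Neurog3, which specifies pancreatic endocrine cells (0.63, adjusted p = 0.00442), Twist1, a mesenchymal factor (0.55, adjusted p = 0.00874), and Neurod1, a neuronal differentiation factor (0.45, adjusted p = 0.0156), rose. Msc, which encodes the repressor musculin (-0.59, adjusted p = 0.00723), and Tal2 (-0.31, adjusted p = 0.0395) fell. Neurog3, Twist1 and Tal2 lay below the median probe set. The other probe sets of Neurog3 (0.005), Neurod1 (0.255) and Tal2 (-0.005) did not pass. Tcf15, known as a target of Id inhibition in ES cells, changed by -0.19 (adjusted p = 0.171). Of 11 Hes, Hey and Bhlhe repressors, only Hes1, an effector of Notch signalling, passed (0.39, adjusted p = 0.0181).

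Cofactors of E proteins were higher in 3 of 10 and lower in 0, with a median change of 0.14, again beside 12.2% and 11.5% of all genes. Runx1t1 (ETO) is a corepressor that binds E proteins. It read 6.01 and 5.85 in Zfp322a RNAi, against 4.75 and 4.79 in control RNAi (1.16 ± 0.09, adjusted p = 0.00148). This probe set, of the x type that can hybridise to other transcripts, lay below the median probe set. Of the 5 other Runx1t1 probe sets, 1 was also higher. Kat2b (PCAF), an acetyltransferase (0.43, adjusted p = 0.0124), and the LIM-only gene Lmo4 (0.41, adjusted p = 0.0164) rose. Crebbp, which encodes the acetyltransferase CBP, did not pass on its brightest probe set (0.16, adjusted p = 0.220), but 1435224_at read 10.92 and 10.93 in Zfp322a RNAi, against 9.87 and 9.88 in control RNAi (1.05, adjusted p = 0.00132). Another probe set of Cbfa2t2, 1441615_at, was lower (-0.61, adjusted p = 0.0226). Usp1 and Wdr48, which form a deubiquitinase complex that stabilises Id proteins, and Fzr1, which directs their degradation, gave 0 of 3 past the threshold on their brightest probe sets, with a median change of -0.20, and another probe set of Wdr48, 1426723_at, was lower (-0.42, adjusted p = 0.0159).

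Cell cycle inhibitors, several of which E proteins are known to induce, and Cdh1, which encodes E-cadherin, did not share a direction, with 1 of 6 higher, 1 lower and a median change of -0.01, beside 12.2% and 11.5% of all genes. Cdkn2a read 5.82 and 5.90 in Zfp322a RNAi, against 6.76 and 6.75 in control RNAi (-0.90 ± 0.08, adjusted p = 0.00183). Cdkn2b, its neighbour in the genome, rose by 0.47 ± 0.08 (adjusted p = 0.0112). Cdkn1b, which encodes p27, did not pass on its brightest probe set (-0.18, adjusted p = 0.206), but 1419497_at was lower (-0.61, adjusted p = 0.00546). The values of Cdkn1a, which encodes p21 (-0.18 ± 0.10, adjusted p = 0.267), and of Cdh1 (0.17 ± 0.09, adjusted p = 0.261) did not pass. The calls on these lists rest on all 4 arrays. With any 1 array left out, a group holds a single array and the fit has fewer residual degrees of freedom, so calls are lost over all probe sets. The changes of the called genes kept their direction, as they must where the groups do not overlap.

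The probe sets of other genes most like the Id genes were found by the Euclidean distance of their 4 array values, each taken relative to the control mean, among the 34942 or 34944 probe sets with 1 symbol that are not the gene's own. Nearest to Id1 were Wls, a Wnt secretion factor (distance 0.03 on the log2 scale), Fst at 1434458_at (0.09) and Coch (0.12). Wls read 7.37 and 7.36 in Zfp322a RNAi, against 5.41 and 5.47 in control RNAi. Nearest to Id2 at 1435176_a_at were the heat shock genes Hspa1b (0.19) and Hspa1a (0.21), near-identical copies whose probe sets may share signal, and Cdc14a (0.32). Hspa1b read 11.91 and 11.88 in Zfp322a RNAi, against 8.83 and 8.81 in control RNAi. Nearest to Id3 were Efr3b (0.11), Id2 at 1422537_a_at (0.14) and Hmox1, haem oxygenase (0.21). With 2 groups of 2 arrays, this likeness is mostly a like size of change.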

How the data were processed

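Total RNA of 4 E14 samples was hybridised to 1-colour Affymetrix arrays. The authors processed the scans with RMA (version not given in the sources used here), and the deposited values are log2 levels of 45037 probe sets, used as deposited. RMA makes array quantiles alike, so a shift of all genes would not show. The labels give 3 days of puromycin selection, whereas the study's methods give a longer one for the arrays.

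Groups came from the sample titles. The platform annotation gave 34945 probe sets 1 symbol, 932 several and 9160 none; 34741 were matched by Entrez ID to RefSeq (GRCm38.p6). Each list gene was represented by its brightest 1-symbol probe set on average over the 4 arrays. Promoters came from RefSeq for Id2, Id3 and Id4. Id1 was not matched there.

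Groups were compared with limma 3.58.1 under R 4.3.3 (moderated linear model, 2 residual degrees of freedom, two-sided, Benjamini-Hochberg over all 45037 probe sets). The median SE of a log2 change was 0.09. The procedure was tested on simulated data. An exact permutation test with 2 arrays against 2 cannot go below 0.333. Nothing in the labels tells whether a group's samples were separate cultures, so p-values measure only the spread between these samples, which may be technical, and the number of arrays limits the precision. Named are all family probe sets, Zfp322a, list genes past the adjusted p, the fixed genes Bmp4, Bmpr1a, Bmpr2, Smad1, Smad4, Smad5, Msx2, Dusp9, Tcf15, Cdkn1a and Cdh1, and the 3 nearest probe sets of Id1, Id2 and Id3; marker genes, the list genes named as not past it and other probe sets of list genes were added after their values were seen. The family, the 10 pathway lists and the 5 marker lists were chosen with earlier results of these data known. Alternatives were array centring, renewed quantile normalization, leaving out dim or cross-hybridising probe sets, a variance trend, the mean of a gene's probe sets, a replicate block, each array left out, and the 1.5-fold rule.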

Additional observations from a re-analysis of the deposited data

How the results depend on the processing

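With each array left out in turn, limma called 0 to 0 probe sets or genes in every set and direction (all probe sets, the Id and E protein family, BMP pathway genes, bHLH genes), where 10572 to 11509 of all probe sets had an unadjusted p under 0.05; a single array was then assumed to vary like the pair of the other group. With the replicate number as a replicate block, the counts were 0 in every set and direction as well. Both settings leave fewer residual degrees of freedom than the 2 of the main fit. Calls were therefore lost over all probe sets, and these counts do not single out an array or a pairing. The limma adjusted p of the list genes called without the block was then 0.0513 or more. Deviations of same-numbered arrays from their group means hardly correlated over all probe sets (r = 0.06). With 2 arrays per group the second pair mirrors the first, so this value cannot tell whether same-numbered samples were handled together. The 1.5-fold rule without a test gave 2104 higher and 1190 lower probe sets, 3 higher and 1 lower BMP pathway genes and 1 higher and 1 lower bHLH genes. Array centring left 1 bHLH gene lower, in place of 2. It also raised the adjusted p of Acvr2b (0.0588) and Tal2 (0.0560) above 0.05, as did a variance trend for Tal2 (0.0720) and renewed quantile normalization for Smurf2 (0.0562), while Tcf15 passed with the trend (0.0471). The cause was not tested. Under the tests other than the block and the arrays left out, 8 to 10 family probe sets were past 0.05 in the higher direction and 2 to 3 in the lower, as a description. The count of 10 was of 18 with dim probe sets left out, where 5087 of all 22530 were higher and 5155 lower. With the variance trend it was of 22, where 6011 of all 45037 were higher and 5609 lower. Nothing is read from these counts either. No called change of a named probe set turned its direction under the settings that gave a change for each probe set. Under them, Id1, Id2 and Id3 kept changes between 1.88 and 3.26. This was largely fixed in advance, since leaving out an array cannot reverse groups that do not overlap. The block does not alter a change at all. The mean of a gene's probe sets was compared by counts only. The limit at low signal is the 4 family probe sets below the median probe set, 1 of Id2, 1 of Tcf4 and 2 of Tcf12.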
